A study of Homo sapiens with 9 samples.

Results

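The fibroblast growth factor (FGF) ligands and receptors were followed in 3 stable lines of HEK293, a human embryonic kidney cell line, through 38 of the 38780 genes named on the array, which 55 of its 50598 probes measure. Members were taken by gene name. The rule used no measured value, but it was chosen with earlier results of these data known. It took the FGF ligands, the FGF receptors, the FGF-binding proteins, the co-receptor KLB, the receptor partners FLRT1, FLRT2 and FLRT3, and the adaptors FRS2 and FRS3. The name pattern also took FGFR1OP, now called CEP43, and FGFR1OP2, which are named after gene fusions with FGFR1 and are not receptors.

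The lines were made by transfection of a pQCXIP plasmid and puromycin selection, and they carried HA-tagged MEK1 as the wild type (WT), with the F53S substitution or with the K57N substitution. MEK1 is the kinase that phosphorylates ERK. F53S is known from a developmental RASopathy and K57N from cancer. For WT replicates 2 and 3, 1 label field names the cells HEK294 and HEK295, whereas their titles and cell line field give HEK293, which was used here. There were 3 arrays per line from separate experiments, each read with 1 dye. WT cells carried the transgene as well, and no untransfected cells are compared here. Each protein was represented by 1 stable line, so the effect of a substitution and other differences between lines cannot be told apart, and both mutants were compared with the same 3 WT arrays. MAP2K1, the gene of MEK1, read 2.34 to 2.42 in WT, 2.39 to 2.5 in F53S and 2.81 to 2.92 in K57N (log2 scale, defined next), and whether its probe lies within the construct was not determined. K57N differed from WT by 0.48 for this gene, with a limma adjusted p of 0.135, and 0.00758 when slide was added as a covariate. It differed from F53S by 0.40, with an adjusted p of 0.308, and 0.0211 with that covariate.

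Every level is the log2 of the processed signal less the 75th percentile of the same array, so 0 is the level of that percentile and 1 unit is 2-fold. Levels of different probes are not comparable, because probes differ in brightness. A gene was tested when the 3 arrays of 1 line or more all showed a probe well above background, and it was represented by its brightest probe. Differences were tested with limma and Benjamini-Hochberg adjustment over all tested probes, and a gene was called at an adjusted p below 0.05 and a change over 2-fold. Replicate 1 of each line was on slide 1 and replicates 2 and 3 were on slide 2. The 75th percentile was 245 to 376.2 on slide 1 and 695 to 821 on slide 2, and 23778 to 26186 probes were well above background on slide 1 against 27245 to 29425 on slide 2. For this reason the same fit with slide added as a covariate, called the slide term, and the differences within each slide are given beside the results they change. Fits that left out 1 array held no slide term, so the slides were then unequal between lines. Of 8 genes fixed as HEK293 markers, 7 were well above background on all 9 arrays and the other, NEFM, on 6. Among genes of other cell types, COL1A2, DCN, PDGFRB and ALB were above background on 0 arrays and COL1A1, PTPRC, CD14, CDH5 and APOA1 on 9, and their part in the results was not tested.

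FGF ligands bind receptor tyrosine kinases at the cell surface together with heparan sulfate, and the receptors then phosphorylate the adaptor FRS2, which recruits GRB2 and SOS and starts the RAS, RAF, MEK and ERK cascade. FGF19, FGF21 and FGF23 act as hormones and use a Klotho protein such as KLB in place of tight binding to heparan sulfate. FGF11 to FGF14 stay inside the cell, bind voltage-gated sodium channels and do not act through the receptors in the way secreted ligands do. Sprouty proteins, SPRED proteins and dual-specificity phosphatases are induced by the cascade and restrain it, and the transcription factors ETV4 and ETV5 are common readouts of FGF signaling.

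Promoter sequences are shown for 4 receptor or partner genes that passed the adjusted p in K57N cells with the slide term: FGFR2, FGFR3 and FLRT3, which were lower, and FGFRL1, which was higher. FGFR1, which passed too and was higher, is not shown. RefSeq's table gave a start site for 30 of the 38 genes and for 18 of the 20 tested, and the most upstream start was used where a gene had several, as FGFR2 with 5. Each line holds the 250 bases before the start on the strand of the gene (GRCh38.p14), with matches on either strand in capitals. The motifs searched were the GC box GGGCGG, the AP-1 site TGANTCA, the ETS site CGGAAG and the EGR site GCGGGGGCG, and the EGR site can overlap a GC box.
FGFR2, chr10:121598445-121598694, minus strand: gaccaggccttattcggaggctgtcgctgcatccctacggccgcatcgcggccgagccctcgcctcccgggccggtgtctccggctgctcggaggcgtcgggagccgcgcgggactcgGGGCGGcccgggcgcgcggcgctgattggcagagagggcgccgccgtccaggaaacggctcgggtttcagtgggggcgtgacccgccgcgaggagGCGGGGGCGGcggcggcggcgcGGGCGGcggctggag
FGFR3, chr4:1793043-1793292, plus strand: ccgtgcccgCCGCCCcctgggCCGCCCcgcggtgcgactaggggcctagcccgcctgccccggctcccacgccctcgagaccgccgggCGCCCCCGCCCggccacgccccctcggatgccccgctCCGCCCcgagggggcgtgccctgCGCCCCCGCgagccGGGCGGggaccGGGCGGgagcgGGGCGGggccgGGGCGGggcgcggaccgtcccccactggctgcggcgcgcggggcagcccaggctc
FGFRL1, chr4:1012214-1012463, plus strand: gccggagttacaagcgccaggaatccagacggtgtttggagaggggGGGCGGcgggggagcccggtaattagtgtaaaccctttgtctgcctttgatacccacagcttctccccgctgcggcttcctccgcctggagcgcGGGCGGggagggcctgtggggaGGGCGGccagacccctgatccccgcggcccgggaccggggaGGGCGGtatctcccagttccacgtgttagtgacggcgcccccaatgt
FLRT3, chr20:14337613-14337862, minus strand: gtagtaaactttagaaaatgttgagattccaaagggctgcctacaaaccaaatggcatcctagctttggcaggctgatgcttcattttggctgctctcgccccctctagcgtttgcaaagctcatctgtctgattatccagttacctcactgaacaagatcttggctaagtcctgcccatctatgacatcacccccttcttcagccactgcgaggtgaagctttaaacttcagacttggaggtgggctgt

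The windows of FGFR2, FGFR3 and FGFRL1 held 3, 8 and 4 GC boxes, and that of FLRT3 held 0. An EGR site was present in FGFR2 and FGFR3, which were the only 2 of the 18 tested members with that match, and 4.67% of 27305 promoters held it. GC boxes were in 12 of the 18, against 42.2% of all promoters. The ETS site was in 1 of the 18, FRS2, against 16.7%, and the AP-1 site in 0, against 6.57%. The bases G and C made up 78.4% of the FGFR2 window, 86.8% of FGFR3, 67.6% of FGFRL1 and 47.6% of FLRT3. A match describes these letters and does not show that a factor binds there.

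Of the 38 genes, 20 were tested through 26 probes, 9 were above background on some arrays but not on all 3 of any line, and 9 were above background on 0 of 9 arrays. All 5 receptor genes were detected on all 9 arrays. Of the 20 tested, 14 were well above background on all 9 arrays. The 6 others were missed on slide 1 arrays and entered the test through some lines alone: FGF2 and FGF11 through WT, FGF7 and FGF18 through K57N, FLRT1 through F53S, and FGF1 through F53S and K57N. For FGF2, FGF11, FGF18 and FLRT1 that line also had the highest mean, and for FGF1 both lines had a higher mean than WT. The filter itself favored these differences. Most canonical ligands were dim or not detected.

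**Figure D1:**
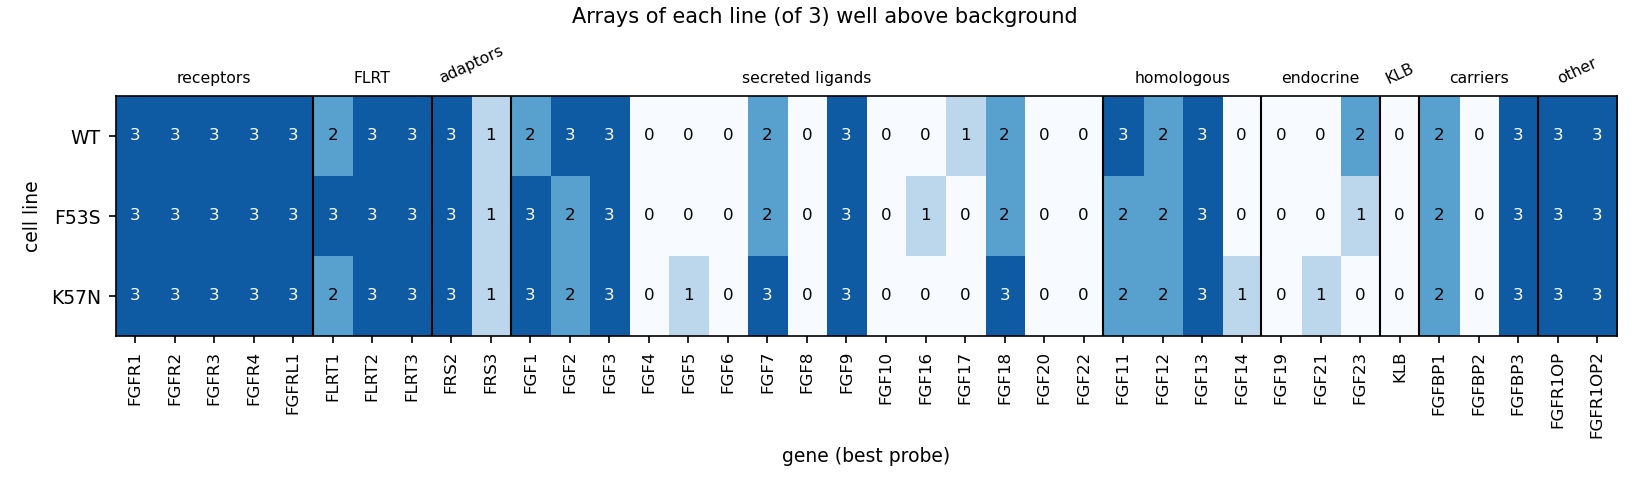
Number of arrays of each line, of 3, on which a probe of the gene was well above background (the best probe of each gene, columns; cell lines, rows; darker cells are higher numbers). FGFR1, FGFR2, FGFR3, FGFR4 and FGFRL1 stand at 3 in every line, whereas 9 genes, among them FGF4, FGF8, FGF10 and KLB, stand at 0 in every line.

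FGFR2 was the member that passed the test in K57N cells, where the count at an adjusted p below 0.05 was 1 of 20, lower. Of all 19280 genes, the background, 2.77% were past that limit and 1.04% were lower. The count was again 1 of 20, FGFR2, for K57N against F53S, with 0.389% of all genes lower. No member was called, with the background at 2.26% for K57N against WT, 0% for F53S against WT and 1.21% for K57N against F53S. At an unadjusted p below 0.05, 4 members were lower in K57N than in WT (FGF11, FGFR2, FGFR3 and FLRT3) and 0 were higher, where 7.02% of all genes were lower and 6.16% higher. With slide as a covariate the same limit gave 6 lower, with FGF2 and FGFR4 added, and 5 higher (FGF13, FGFR1, FGFR1OP, FGFR1OP2 and FGFRL1), with a background of 19% lower and 14.8% higher. For F53S, FLRT3 passed at an unadjusted p, with 0.275% of all genes lower. With slide as a covariate FGF9 and FLRT3 were lower and FGF1 and FGFR1 higher at that limit, with 1.75% of all genes lower and 2.34% higher. After adjustment 0 passed for F53S, with a background of 0%.

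With the slide term, 7 members passed the adjusted p for K57N against WT: FGF11, FGF2, FGFR2, FGFR3 and FLRT3 were lower, and FGFR1 and FGFRL1 were higher. The background was then 19.4%, with 10.8% lower and 8.56% higher. Of the 7, 5 were well above background on all 9 arrays, and FGF2 and FGF11 were not. FGF11 was past the 2-fold limit as well, where 1.97% of all genes were lower, but its K57N array on slide 1 was not well above background and on slide 2 alone the difference was -0.67. With the slide term and no filter on dim probes the 7 became 2, FGFR2 and FLRT3, and the adjusted p of FGF11 was 0.0975. The share of all genes in that unfiltered fit was not taken, so this fall is not compared with genes at large. The replicate number as a block gave the same 7 genes, with a background of 14.8%, and again FGF11 past 2-fold, with 1.87% lower. For K57N against F53S, 4 members passed with the slide term (FGFR2 and FGFR3 lower, FGF9 and FGFRL1 higher), with 7.54% of all genes lower and 5.83% higher. Without the filter on dim probes this became 1, FGFR2, again with no share of all genes to set it against. The replicate block gave a count of 4 as well, with a background of 8.94%. For F53S against WT 0 passed, with a background of 0%. Over the 20 tested members the median log2 difference was -0.03 for K57N against WT, 10 above 0 and 10 below, and the median over all genes was -0.06. It was -0.03 for F53S against WT, where the median over all genes was 0.01.

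**Figure D2:**
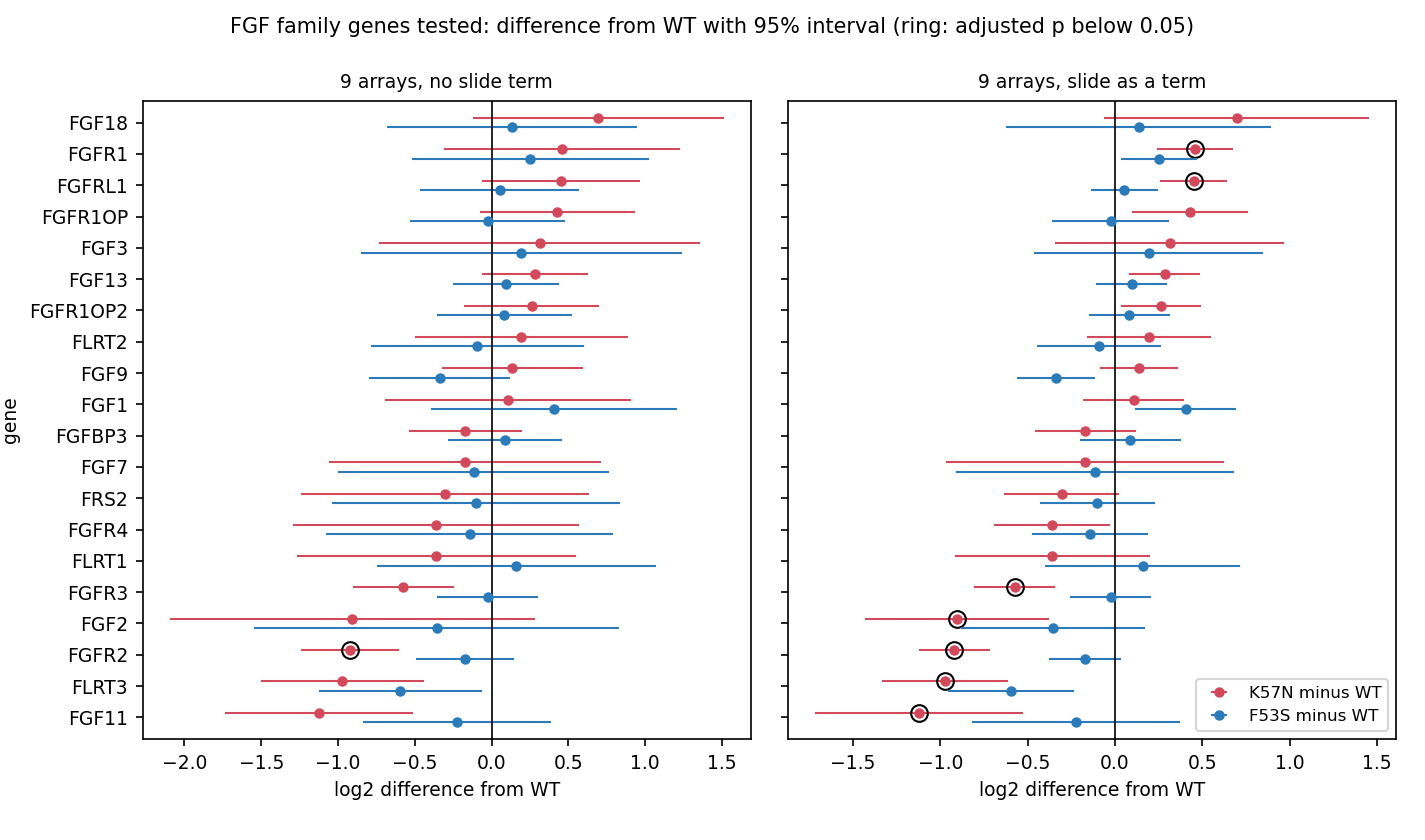
Log2 difference of the 20 tested genes from WT (horizontal axis) with its 95% confidence interval, for K57N in red and F53S in blue, fitted without a slide term (left) and with it (right); a ring marks an adjusted p below 0.05. Without the term FGFR2 in K57N carries the only ring, and with it 7 genes do, all of them in K57N.

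Of the receptors, FGFR2 was lower in K57N cells than in WT. With the slide term FGFR3 was lower too and FGFR1 and FGFRL1 were higher, where 10.8% of all genes were lower and 8.56% higher, and in F53S cells no receptor passed the test. FGFR1, FGFR3 and FGFRL1 did not pass without the slide term, nor with it when the filter on dim probes was dropped (adjusted p 0.0955, 0.0617 and 0.0781). FGFR1, FGFR2, FGFR3 and FGFR4 are the signaling receptors with a tyrosine kinase domain.

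FGFR2 read 1.58, 1.49 and 1.41 in WT (replicates 1 to 3), 1.39, 1.32 and 1.26 in F53S, and 0.56, 0.51 and 0.66 in K57N. All K57N arrays were below all others, and the F53S arrays were below the WT arrays as well, by a small step. The K57N level was 1.89-fold lower than WT (log2 difference -0.92 ± 0.14, SE, n = 3 per line, adjusted p = 0.0124). It was -0.75 ± 0.14 against F53S, adjusted p = 0.0465. The F53S difference from WT was -0.17, with a 95% interval from -0.49 to 0.15. K57N against WT was -1.03 on slide 1 and -0.87 on slide 2. In bulk RNA, fewer cells with the transcript and less of it per cell cannot be told apart. With the slide term the adjusted p was 0.000598 against WT and 0.00248 against F53S. With no slide term and no filter on dim probes it was 0.157 against WT. The adjusted p against WT rose above 0.05 when WT replicate 2, WT replicate 3, K57N replicate 2 or K57N replicate 3 was left out, reaching at most 0.0798, and the difference stayed between -0.96 and -0.88 over the 9 fits that left out 1 array. Against F53S the adjusted p was 0.0512 to 0.227 in those 9 fits, above 0.05 in each.

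The array holds 3 FGFR2 probes, and they differed in size. The brightest probe, described above, lies at chr10:123237830-123237843 in the annotation of the array (hg19). The second, at chr10:123243217-123243276, read -1.60, -1.56 and -1.50 in WT, -1.77, -1.53 and -1.49 in F53S, and -1.93, -2.07 and -1.80 in K57N. All its K57N values were below the others, but the difference from WT was -0.38 ± 0.15 with an adjusted p of 0.326, and 0.0437 with the slide term. The third, which the annotation ties to another transcript, was above background on 1 F53S array. The mean of the 2 tested probes gave -0.65 with an adjusted p of 0.0471.

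FGFR3 read 3.86, 3.99 and 4.0 in WT, 3.93, 3.84 and 4.0 in F53S, and 3.50, 3.32 and 3.30 in K57N. The WT and F53S arrays overlapped, and all K57N arrays were lower. The difference from WT was -0.58 ± 0.14 for K57N, which missed the threshold (adjusted p = 0.0917) and passed it with the slide term (0.00796). Against F53S it was -0.55 ± 0.14, with an adjusted p of 0.164 and 0.0138 with the slide term. For F53S against WT it was -0.03, interval -0.36 to 0.30. The second FGFR3 probe gave -1.26, -1.23 and -1.24 in WT, -1.13, -1.23 and -1.20 in F53S, and -1.67, -1.64 and -1.75 in K57N. Its K57N difference of -0.44 ± 0.13 had an adjusted p of 0.158, and 0.00945 with the slide term, so both probes ran the same way.

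FGFR1 read 2.01, 1.17 and 1.19 in WT, 2.30, 1.40 and 1.43 in F53S, and 2.31, 1.69 and 1.75 in K57N. The slide 1 array was the highest of each line, and on each slide the order was WT, then F53S, then K57N, with F53S and K57N 0.01 apart on slide 1. The K57N difference from WT was 0.46 ± 0.34 with an adjusted p of 0.719, and 0.0143 with the slide term. Within slides it was 0.30 on slide 1 and 0.54 on slide 2. Fitted without that term, it was 0.26 when K57N replicate 1 was left out and 0.74 when WT replicate 1 was left out. The second tested FGFR1 probe gave 0.35 ± 0.16, adjusted p 0.431, and 0.0575 with the slide term. F53S differed from WT by 0.25, interval -0.52 to 1.02.

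FGFRL1, a receptor-like protein that lacks the kinase domain, read 1.87, 1.33 and 1.43 in WT, 1.91, 1.39 and 1.49 in F53S, and 2.27, 1.89 and 1.83 in K57N. Each slide had its K57N arrays above the others. The difference from WT was 0.45 ± 0.23, adjusted p 0.474, and 0.00959 with the slide term. Against F53S it was 0.40 ± 0.23, adjusted p 0.681, and 0.0220 with the slide term. It was 0.26 without K57N replicate 1, fitted with no slide term. F53S lay 0.05 above WT, interval -0.46 to 0.57.

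FGFR4 read -1.50, -2.48 and -2.29 in WT, -1.39, -2.71 and -2.60 in F53S, and -2.04, -2.60 and -2.71 in K57N. The lines overlapped. K57N differed from WT by -0.36 ± 0.41 (adjusted p 0.882, and 0.122 with the slide term). Without WT replicate 1 the difference was -0.06, and without K57N replicate 1 it was -0.57.

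**Figure D3:**
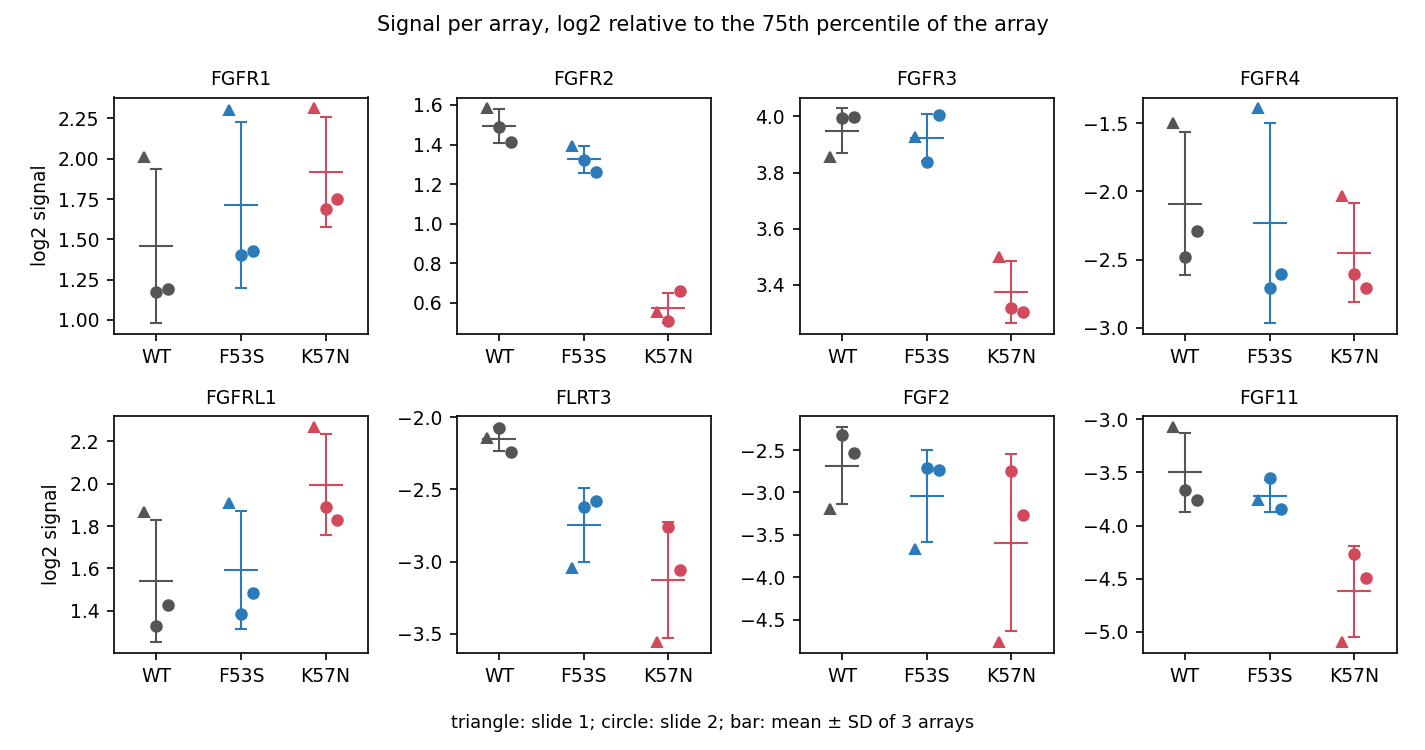
Level of 8 members on each array (vertical axis, log2 relative to the 75th percentile of the array, a separate range in each panel), with triangles for slide 1, circles for slide 2 and bars for the mean ± SD of 3 arrays. FGFR2 and FGFR3 show all K57N arrays below the other lines, and FGFR1 and FGFRL1 show a slide 1 array above the slide 2 arrays in each line.

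The FLRT proteins are membrane proteins with leucine-rich repeats that bind FGF receptors. FLRT3 read -2.15, -2.07 and -2.24 in WT, -3.04, -2.62 and -2.58 in F53S, and -3.56, -2.76 and -3.06 in K57N. Both mutant lines lay below all WT arrays and overlapped each other. K57N was 1.96-fold lower than WT (-0.97 ± 0.23, adjusted p 0.0774, and 0.00562 with the slide term). F53S differed from WT by -0.60 ± 0.23, with an unadjusted p of 0.0322 and an adjusted p of 1, and 0.764 with the slide term. K57N and F53S differed by -0.38, interval -0.91 to 0.15, and -0.74 to -0.02 with the slide term (adjusted p 0.148). The K57N difference was -1.41 on slide 1 and -0.75 on slide 2, and normexp background correction gave -0.64 with an adjusted p of 0.236.

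FLRT1 read -3.76, -4.58 and -4.25 in WT, -3.08, -4.63 and -4.40 in F53S, and -4.41, -4.69 and -4.56 in K57N, close to background, and K57N differed from WT by -0.36 ± 0.40. The difference was -0.14 without WT replicate 1 and -0.55 without WT replicate 2. FLRT2 read -1.81, -1.58 and -1.46 in WT, -2.31, -1.52 and -1.30 in F53S, and -1.84, -1.36 and -1.06 in K57N. Its arrays overlapped across lines, and K57N differed from WT by 0.19 ± 0.30, with 0.01 when K57N replicate 3 was left out and 0.40 when K57N replicate 1 was.

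The adaptor FRS2 read -0.80, -0.25 and -0.23 in WT, -1.20, -0.25 and -0.13 in F53S, and -1.56, -0.34 and -0.30 in K57N. The slide 1 arrays were the lowest of each line, and on slide 2 all values lay between -0.34 and -0.13. The K57N difference was -0.31 ± 0.41 (adjusted p 0.923), with -0.76 on slide 1 and -0.08 on slide 2. FRS3 was above background on 1 array of each line and was not tested.

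Of the 15 canonical secreted ligands, 6 were tested: FGF1, FGF2, FGF3, FGF7, FGF9 and FGF18. FGF9, a ligand with a known role in gonad and lung development, read -1.10, -0.88 and -0.83 in WT, -1.63, -1.06 and -1.13 in F53S, and -0.99, -0.66 and -0.75 in K57N. All K57N arrays were above all F53S arrays. K57N differed from F53S by 0.47 ± 0.20, with an adjusted p of 0.471 and 0.0206 with the slide term, and from WT by 0.13 ± 0.20. Without F53S replicate 1 the difference from F53S was 0.29. That from WT was 0.05 without WT replicate 1 and 0.23 without K57N replicate 1. The second FGF9 probe gave 0.22 ± 0.27 against F53S, adjusted p 0.950, and 0.410 with the slide term, and against WT it had the opposite sign to the first (-0.14).

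FGF2, basic FGF, read -3.20, -2.32 and -2.53 in WT, -3.67, -2.72 and -2.74 in F53S, and -4.76, -2.75 and -3.26 in K57N. The F53S and K57N arrays on slide 1 were not well above background, so FGF2 was tested through WT, its highest line. The K57N difference was -0.91 ± 0.52, adjusted p 0.565, and 0.0302 with the slide term. On slide 2, where all arrays were above background, it was -0.58 and did not pass (adjusted p 0.0909 over those 6 arrays). The slide 1 value of -1.56 was taken from a K57N array not above background. Without K57N replicate 1 the difference was -0.32, and normexp background correction gave -0.43. Another FGF2 probe shares 46 of its 60 bases with this one. Their unshared ends, shown because the probes differed in signal although they overlap, are in lower case here.
Brighter probe, last 14 bases: ttttcttgtctccc
Dimmer probe, first 14 bases: ttttatgtaaaaat

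The dimmer probe was detected on the slide 2 arrays of WT and F53S and on 0 K57N arrays. It read -4.70 and -4.01 in those WT arrays, -3.89 and -4.30 in F53S, and -5.00 and -5.14 in K57N, and it was not tested.

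FGF18, a ligand with a known role in bone and cartilage, read -4.91, -4.44 and -4.41 in WT, -5.24, -4.06 and -4.05 in F53S, and -3.46, -4.16 and -4.04 in K57N. All K57N arrays were above all WT arrays, and on slide 2 the K57N and F53S arrays overlapped. On slide 1 FGF18 was well above background in K57N alone, the line through which it entered the test. The K57N difference from WT was 0.70 ± 0.36 (adjusted p 0.490, and 0.180 with the slide term). It was 0.32 on slide 2, where the 6 arrays alone gave an adjusted p of 0.0344, and 0.08 with normexp background correction. The slide 1 value of 1.45 was taken against a WT array not well above background.

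FGF1, acidic FGF, read -3.48, -4.49 and -4.13 in WT, -3.04, -4.02 and -3.81 in F53S, and -3.49, -4.21 and -4.08 in K57N. It entered the test through F53S and K57N, and its WT array on slide 1 was not well above background. On each slide the F53S arrays were the highest, and F53S differed from WT by 0.41 ± 0.35, interval -0.40 to 1.21, with an adjusted p of 1. FGF3 read -2.51, -4.15 and -3.38 in WT, -2.89, -3.61 and -2.96 in F53S, and -2.36, -3.57 and -3.16 in K57N, and K57N differed from WT by 0.31 ± 0.46. FGF7, keratinocyte growth factor, gave -0.17 ± 0.39 for K57N against WT, with opposite signs on the slides (0.95 on slide 1, where the K57N array alone was well above background, and -0.73 on slide 2).

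The other 9 secreted ligands were not tested. FGF4, FGF6, FGF8, FGF10, FGF20 and FGF22 were above background on 0 arrays. FGF5, FGF16 and FGF17 were above background on 1 array each, in K57N, F53S and WT in that order. The FGF16 value of -2.56 in F53S replicate 2 stood beside -5.92 and -7.28 in the other F53S arrays. A dim FGF1 probe was at -1.95 in WT replicate 1 and -5.30 or lower on the other 8 arrays.

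Among the intracellular FGF homologous factors, FGF11 read -3.07, -3.66 and -3.76 in WT, -3.76, -3.55 and -3.85 in F53S, and -5.10, -4.27 and -4.49 in K57N. All K57N arrays were below all others, and the F53S and K57N arrays on slide 1 were not well above background, so FGF11 was tested through WT, its highest line. On slide 2, where all arrays were above background, K57N differed from WT by -0.67 (adjusted p 0.0292 over those 6 arrays). Over all 9 arrays the difference was -1.12 ± 0.27 (adjusted p 0.0768). The adjusted p was 0.0218 with the slide in the fit and 0.0348 with the replicate block. Against F53S the difference was -0.90 ± 0.27, adjusted p 0.231. The slide 1 difference from WT of -2.02 was taken from a K57N array not above background. Without K57N replicate 1 the difference was -0.88, and normexp background correction gave -0.41 with an adjusted p of 0.918. F53S differed from WT by -0.22, interval -0.83 to 0.39.

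FGF13 read 1.06, 0.88 and 0.76 in WT, 1.09, 0.97 and 0.93 in F53S, and 1.27, 1.07 and 1.21 in K57N. All K57N arrays were above all WT arrays, by 0.28 ± 0.15 on average (adjusted p 0.522, and 0.0590 with the slide term). FGF12 was detected on all 6 slide 2 arrays and on 0 slide 1 arrays, and FGF14 on 1 K57N array, so neither was tested.

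The endocrine ligands and their co-receptor were at or near background. FGF19, which signals from the intestine to the liver, and KLB, its co-receptor, were above background on 0 arrays. FGF21, a liver hormone of fasting, was above background on 1 K57N array. FGF23, a bone hormone of phosphate balance, was above background on 2 WT arrays, 1 F53S array and 0 K57N arrays.

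The FGF-binding proteins release stored ligands from the matrix. FGFBP3 read -1.67, -1.52 and -1.49 in WT, -1.49, -1.54 and -1.39 in F53S, and -1.51, -1.93 and -1.76 in K57N. Its lines overlapped, and K57N differed from WT by -0.17 ± 0.16. FGFBP1 was detected on all 6 slide 2 arrays and no others, and FGFBP2 on 0 arrays. Of the members that are no receptors, FGFR1OP (CEP43), a centrosomal protein, read 0.17, 0.79 and 0.66 in WT, 0.17, 0.66 and 0.71 in F53S, and 1.0, 0.89 and 1.01 in K57N. All its K57N arrays were the highest, with a difference from WT of 0.43 ± 0.22 (adjusted p 0.495, and 0.0765 with the slide term), which was 0.24 without WT replicate 1. FGFR1OP2 differed by 0.26 ± 0.19 for the brightest of its 3 tested probes.

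The 3 arrays of K57N and of WT did not overlap for 7 of the 20 tested members, 3 higher (FGF13, FGF18 and FGFR1OP) and 4 lower (FGF11, FGFR2, FGFR3 and FLRT3), where 10.3% of all genes were higher and 12.6% lower. FGF11 and FGF18 are among them with slide 1 arrays that were not above background. For F53S against WT they did not overlap for 2, both lower (FGFR2 and FLRT3), with 1.64% of all genes lower. Within slides, the K57N difference from WT had 1 sign on both slides for most members, and FGF1, FGF7, FGFBP3 and FLRT2 were the exceptions.

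**Figure D4:**
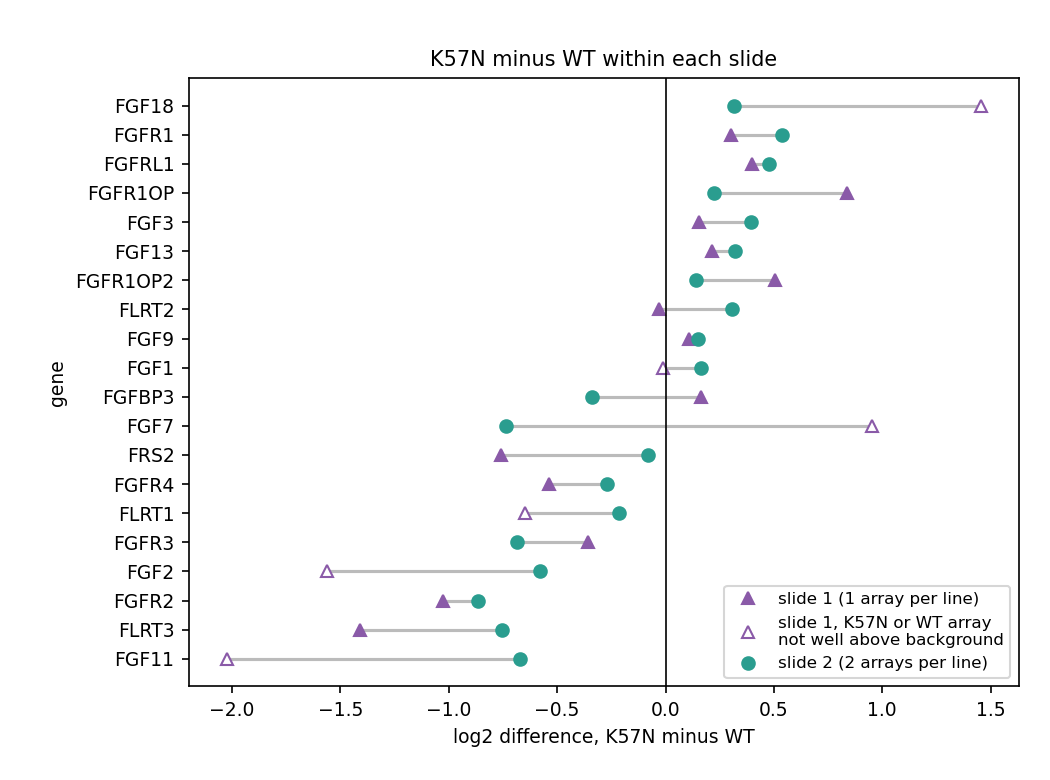
Log2 difference between K57N and WT for the 20 tested genes (horizontal axis), on slide 1 with 1 array per line (triangles) and on slide 2 with 2 arrays per line (circles), joined by a line for each gene, with open triangles where the K57N or the WT array on slide 1 was not well above background. FGFR2 and FGFRL1 differ little between slides, whereas FGF11 (-2.02 and -0.67), FGF2 (-1.56 and -0.58) and FGF18 (1.45 and 0.32) differ more in size, with open triangles, and FGF7 changes sign.

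Genes that carry the receptor signal, such as GRB2, SOS1, PLCG1 and BRAF, did not pass the adjusted p in K57N cells without the slide term. Of 20 listed, 19 were tested and 0 passed against WT, where 2.77% of all genes did, a share too small for this count to set the list apart. Their median difference was -0.01, against -0.06 over all genes. With the slide term 4 of the 19 were higher, among them CBL, PIK3CA and BRAF, against 8.56% of all genes. There were 2 lower (PLCG1 and PIK3R1), against 10.8% of all genes. BRAF, the kinase upstream of MEK, read -1.84, -1.85 and -1.97 in WT and -1.11, -1.45 and -1.50 in K57N (0.53, adjusted p 0.158, and 0.0140 with the slide term). In F53S 0 of the 19 passed in either fit, as did 0% of all genes.

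Feedback inhibitors and targets of FGF signaling rose in K57N cells for 10 of the 17 genes tested, of 18 listed. These 10 were called, all higher, against 1.52% of all genes called higher: SPRY2, SPRY4, SPRED1, DUSP4, DUSP5, DUSP6, ETV4, ETV5, EGR1 and FOS. Their list had a median difference of 2.26. DUSP6, a phosphatase of ERK, read -3.33, -1.70 and -2.01 in WT, 0.51, 0.49 and 0.65 in F53S, and 4.06, 4.01 and 3.86 in K57N. All its F53S arrays lay between the other lines, and K57N differed from WT by 6.32 (adjusted p 0.000278). SPRY4, a Sprouty inhibitor of receptor signaling, read -4.93, -3.69 and -3.62 in WT, -1.33, -1.43 and -1.16 in F53S, and 0.27, 0.23 and 0.65 in K57N, a difference of 4.46 (adjusted p 0.000528). ETV4 differed by 5.02 and EGR1 by 5.29. SPRY4, DUSP5, ETV1, ETV4 and ETV5 were well above background on 2 of the 3 WT arrays and on all arrays of the mutants. They entered the test through the lines where they were high, so the filter favored their calls, and the sizes of their differences rest in part on a WT value not above background. The called genes above background on all 9 arrays were SPRY2, SPRED1, DUSP4, DUSP6, EGR1 and FOS. The list was chosen with earlier results of these data known, so its count is a description. SPRY3, IL17RD, MYC and SPRY1 differed from WT by -0.26 to 0.34 and did not pass. SPRED2 (1.25), ETV1 (2.80) and CCND1 (0.52, a cell cycle cyclin) did not pass either, but did with the slide term (adjusted p 0.00397, 0.0101 and 0.00956).

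In F53S the median of the same 17 genes was 0.99, against 0.01 over all genes, and 0 were called, as were 0% of all genes. The differences were 2.90 for DUSP6 (adjusted p 0.352, and 0.0835 with the slide term), 2.77 for SPRY4 (0.349 and 0.0835) and 3.61 for ETV4 (0.320 and 0.0835). SPRY4 and ETV4 were well above background on 2 of the 3 WT arrays. With DUSP5, ETV1 and ETV5 they entered the test through the mutants, so the filter favored their differences and the list's median. K57N against F53S had 6 called higher: SPRY2, DUSP4, DUSP5, DUSP6, EGR1 and FOS, against 0.96% of all genes.

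Heparan sulfate proteoglycans hold FGF ligands at the cell surface, and 22 of 24 listed genes for them and their enzymes were tested. In K57N against WT 3 were called, 1 higher and 2 lower, against 2.26% of all genes in either direction. SDC4, a syndecan, was called higher (1.21, adjusted p 0.0278). GPC3, a glypican, was called lower (-1.16, adjusted p 0.00812), as was SULF1, a sulfatase that removes sulfate from heparan sulfate (-1.52, adjusted p 0.00911). GPC3 read 1.24, 0.93 and 0.89 in WT, 0.99, 0.81 and 0.77 in F53S, and -0.15, -0.13 and -0.12 in K57N. SULF1 read -0.59, -1.08 and -0.99 in WT, -1.46, -0.88 and -1.16 in F53S, and -2.60, -2.37 and -2.26 in K57N. For both genes all K57N arrays were below all others, and the related sulfatase SULF2 differed by -0.09 (adjusted p 0.982). With the slide term HS3ST1, a sulfotransferase, was called lower too (-1.47, adjusted p 0.00067). In F53S 0 of the 22 passed in either fit, against 0% of all genes, and the list's median was -0.20 in K57N and -0.03 in F53S.

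**Figure D5:**
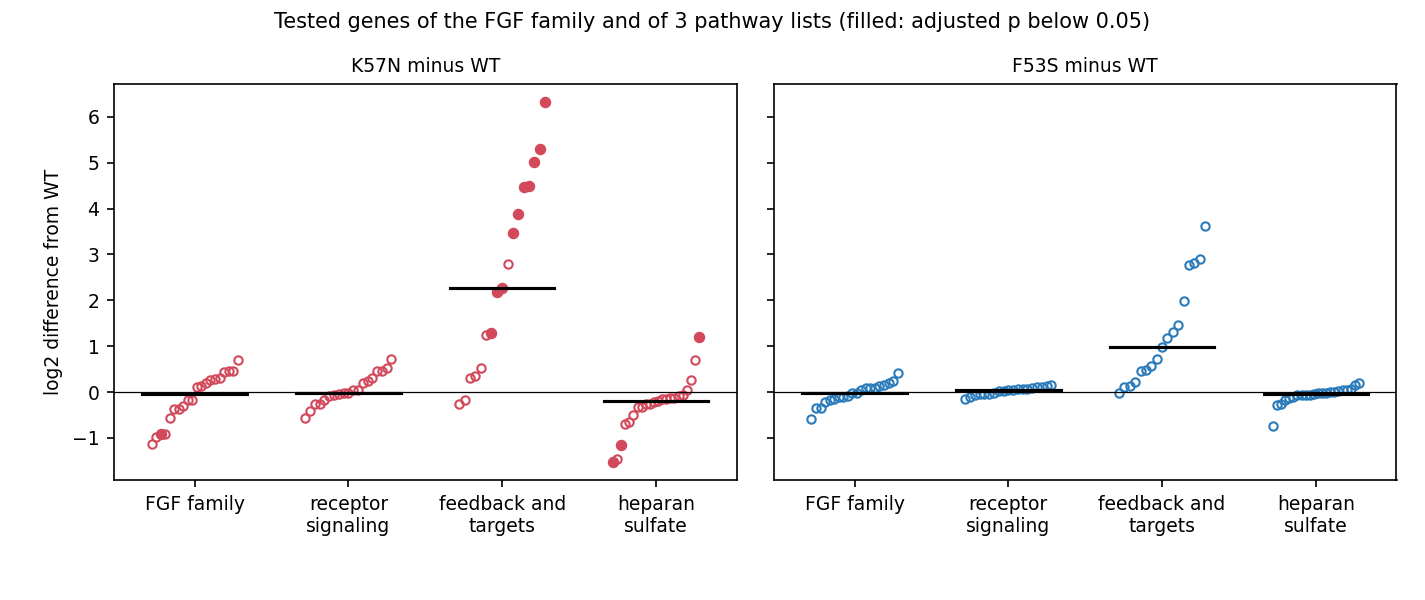
Log2 difference from WT (vertical axis) of each tested gene of the FGF family and of the 3 lists, sorted within a list, for K57N (left) and F53S (right), with filled points for an adjusted p below 0.05 and a black bar at the median. The feedback and target genes reach 6.32 in K57N with a median of 2.26, whereas the FGF family members lie between -1.12 and 0.70 with a median of -0.03.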

How the data were processed

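RNA of 9 HEK293 cultures, 3 per stable line, was hybridized to Agilent 1-dye human arrays. The authors deposited scanner output from Agilent Feature Extraction 10.10.1.1 (per the labels). Its processed signal is the intensity of a spot less background, corrected for trends within the array and not scaled between arrays. A log2 table that the authors deposited differs from the log2 of this intensity by 1 constant in each array (tolerance 0.02, 100% of single-spot probes). The number of arrays limits the precision. Positions are on hg19 per the file headers.

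Intensities were put on the log2 scale relative to the 75th percentile over spots that are not controls, spots marked as outliers were dropped (278 to 501 per array), and spots of a probe were averaged. The fit (R 4.3.3, limma 3.58.1) held 1 mean per line over all 9 arrays, without slide or replicate number, and p was adjusted over 25400 probes. A gene was represented by its brightest tested probe. Accessions named 29028 probes, and 53 of 55 member probes matched RefSeq. Figures used Python 3.11.15, pandas 2.3.3 and matplotlib 3.10.9. The procedure was tested on simulated data.

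Same-numbered arrays deviated together (r between 0.35 and 0.878 over the 9 pairs). They also shared a slide, and arrays of different numbers were not compared, so pairing beyond the slide was not tested. Values are given for members called without a block, with the replicate block or with the slide block, for FGFR1, FGFR2, FGFR3 and FGFR4, and for the next by largest difference up to 16. The members, the 3 pathway lists, the markers and the motifs were chosen with earlier results of these data known. As alternatives, the background was corrected by normexp (offset 50), arrays were quantile-normalized, the filter was dropped or set to detection on all 9 arrays, probes of a gene were averaged, lines were fitted in pairs, either block was added, slide 2 was taken alone, the deposited log2 values or the methods' t-test were used, and each array was left out. Unadjusted limma p and the slide block without a filter were added after seeing the data. Some genes of the pathway and marker lists are not reported here by name.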

Additional observations from a re-analysis of the deposited data

How the results depend on the processing

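The count of members at an adjusted p below 0.05 depended on how the slide was handled and on the filter on dim probes. For K57N against WT it was 1 in the fit without a block, 7 with the replicate block, 7 with the slide block, 7 on slide 2 alone, 2 with the slide block and no filter on dim probes, and 0 with no filter. Unadjusted, it was 4 with limma and 4 with the methods' t-test. For K57N against F53S it was 1 without a block, 4 with the replicate block, 4 with the slide block, 1 with the slide block and no filter on dim probes, 6 on slide 2 alone, and 0 with normexp, with no filter, with fits of 2 lines, with the deposited table, with the mean of a gene's probes and with the adjusted t-test. Unadjusted, it was 4 with limma and 3 with the t-test. For F53S against WT it was 0, and 1 unadjusted with limma or the t-test (FLRT3). For K57N against WT the 7 on slide 2 alone included FGF18 and not FGF2. Shares of all genes at these limits were not taken for slide 2 alone, fits without a filter or the t-test. Those counts do not compare members with genes at large. The count of called members for K57N against WT was 0, and 1 with the replicate block, the slide block, unadjusted limma p and the unadjusted t-test. Leaving out 1 array gave 0 to 1 at an adjusted p below 0.05 for K57N against WT (0 without WT replicate 2, WT replicate 3, K57N replicate 2 or K57N replicate 3), and 0 to 0 for F53S against WT, for K57N against F53S and for the called counts. The cause was not tested.

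Of 455 values of 20 gene differences under alternatives, 448 kept their sign. The 7 others were all K57N against WT at an adjusted p above 0.9. FGF9 was at -0.0016 with the mean of its probes and FGF1 at -0.083 with normexp. Leaving out 1 array gave -0.12 to 0.38 for FGF1, -0.087 to 0.73 for FGF3 and -0.52 to 0.11 for FRS2. FGF1 and FGF3 changed sign without WT replicate 2 and without K57N replicate 1, and FRS2 without K57N replicate 1. These fits held no slide term, so the slides were then unequal between lines. On slide 1 and slide 2, FGF3 differed by 0.16 and 0.39, FRS2 by -0.76 and -0.08, and FGF1 by -0.01 and 0.17. Fewer probes were well above background on slide 1, and 6 of the 20 tested members were not above it on all 9 arrays.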
